A study of Mus musculus with 2 samples.

Results

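The genes described here build and equip the brush border, the carpet of microvilli on the luminal face of intestinal absorptive cells. They comprised microvillus scaffold genes, the epithelial keratins and the hydrolases that finish digestion at the cell surface. The set was a list of 43 gene symbols, and 42 of them had a row in both deposited tables, out of 23284 genes listed; Ankrd4 had no row. The study compared small intestinal epithelial cells of miR-215-/- mice, which lack a microRNA of the gut epithelium, with those of wild-type mice (miR-215+/+). It gave 1 mRNA sequencing library for each genotype. The sources used here do not give the strain, sex and age of the mice, the extent of the deletion, the segment of intestine or whether animals were pooled. Since each genotype had a single library, differences have no replicate check and the conditions could not be tested, and "higher" and "lower" describe the miR-215-/- library relative to the wild-type library.

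A microvillus is a finger of plasma membrane around a bundle of parallel actin filaments. Bundling proteins hold the filaments together, myosins tie them to the membrane, ezrin and its PDZ-domain partners anchor membrane proteins, and protocadherins link neighbouring microvilli at their tips. The membrane carries glycosidases, peptidases and phosphatases with their active sites facing the lumen, which cut oligosaccharides, peptides, phosphate esters and sphingolipids into products that can be absorbed. These genes are expressed by differentiated villus enterocytes, and several hydrolases are graded along the length of the small intestine and from the base of the villus to its tip.

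The deposited unit is FPKM, a fragment number per kilobase of message scaled by depth, and the values summed to 683884 in the miR-215-/- library and 750631 in the wild-type library. Steps between low values put the worth of 1 fragment on a message of 1 kb at 0.109 FPKM for the miR-215-/- library and at 0.114 FPKM for the wild-type library. The 41 members that reached 1 FPKM in either library rested on an estimated 277 to 103844 fragments per library. Intervals below are exact 95% Clopper-Pearson counting intervals of the fold, which cover counting error only and say nothing about variation between mice. The levels matched the label of intestinal epithelium: Fabp2, a fatty acid-binding protein of enterocytes, was at 15926 FPKM in the miR-215-/- library and 18795 FPKM in the wild-type library. The 9 enterocyte genes outside the members summed to 58907 FPKM in the miR-215-/- library and 66040.2 FPKM in the wild-type library.

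The brush border genes were abundant in both libraries and kept nearly the same order of levels. Among the 500 highest genes of each library, 29 were members in the miR-215-/- library and 29 in the wild-type library, and Spearman's rho of the members' levels between libraries was 0.978 over 41 genes, a description across genes that share their libraries. The most abundant was Anpep, aminopeptidase N, followed by Krt8 and Krt20. The least abundant kept member was Tmprss15, and Alpl was below 1 FPKM. The summed FPKM of all listed members was 26775 in the miR-215-/- library and 28170 in the wild-type library, or 3.92% and 3.75% of the library sums of the miR-215-/- and the wild-type library.

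**Figure D1:**
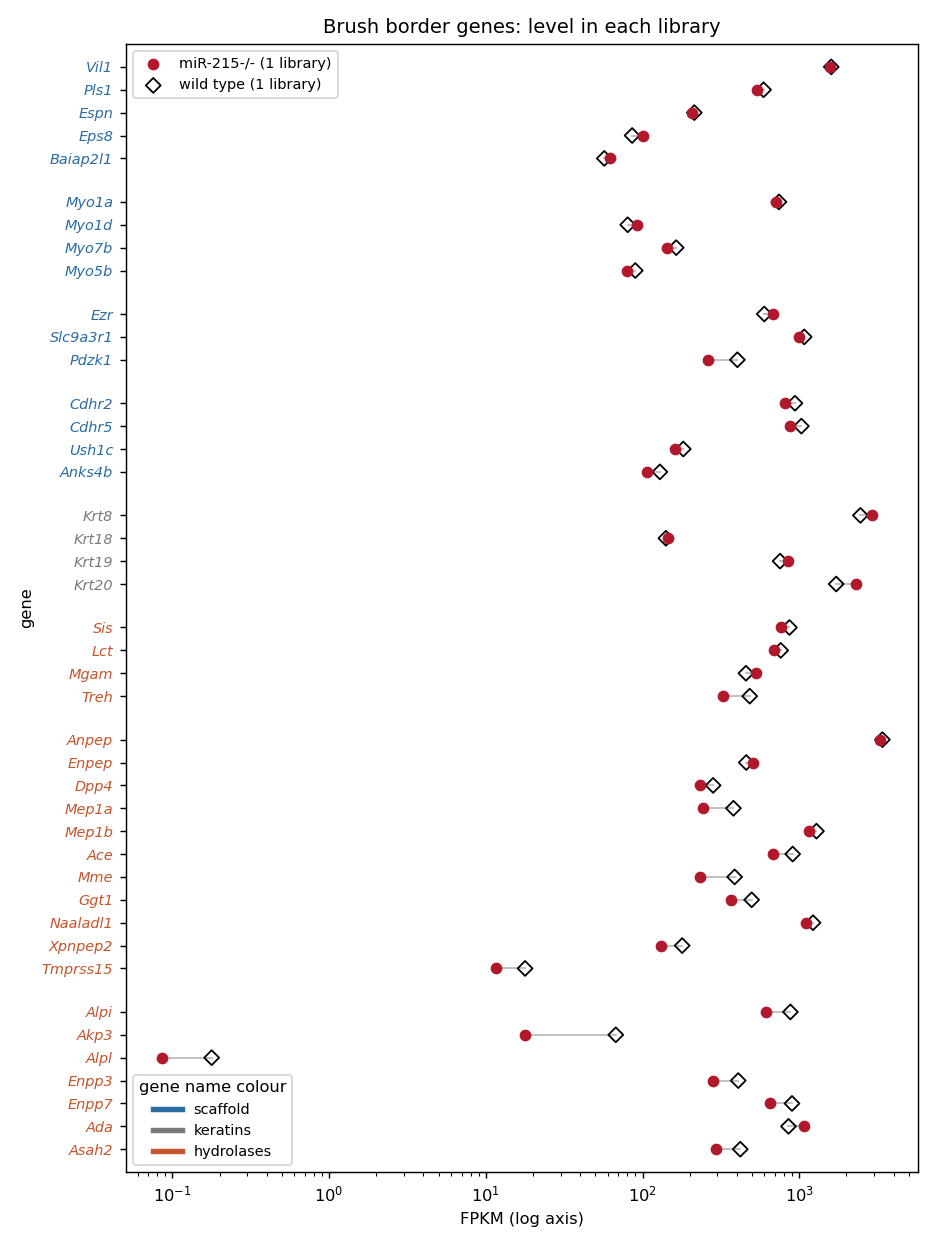
FPKM on a log axis for each of the 42 listed genes, grouped by role, with a filled circle for the miR-215-/- library and an open diamond for the wild-type library. Scaffold genes show circles and diamonds that nearly coincide except for Pdzk1, while most hydrolases have the circle to the left, farthest for Akp3 at 17.9 FPKM in the miR-215-/- library and 67.5 FPKM in the wild-type library.

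Log2 ratios below are log2(FPKM + 1) in the miR-215-/- library minus the same in the wild-type library. In bulk RNA, fewer cells of a type and less RNA per cell cannot be told apart. Across all 11504 genes that reached 1 FPKM in either library (the genes kept) the median was -0.05, with 56.0% below 0 and 44.0% above. Abundant genes lay lower: among the 2190 that reached 50 FPKM in either library, called abundant genes here, the median was -0.18, and 75.2% were below 0. Multiplying the miR-215-/- values to equal library sums moved the median of all genes from -0.05 to 0.07, so small ratios are to be read against these medians. Of the 41 kept members, 30 were below 0 and 11 above, a share of 73.2% below 0 that is near the share among abundant genes. Only Akp3 was 2-fold apart. Among all genes kept 3.38% were 2-fold apart, 1.34% higher and 2.04% lower, and among abundant genes 5.25% were, 1.78% higher and 3.47% lower. The 4 members at least 1.5-fold lower were Akp3, Mme, Mep1a and Pdzk1. With equal library sums or equal upper quartiles Akp3 and Mme remained past 1.5-fold, while Mep1a was at -0.50 and -0.52 and Pdzk1 at -0.50 and -0.51 and both missed it; Pdzk1 also missed it with the length trend removed, at -0.56. They are 9.76% of the kept members, against 7.26% of all genes kept and 11.8% of abundant genes. None was 1.5-fold higher, against 4.83% of all genes kept and 3.38% of abundant genes, so that 12.1% of all genes kept and 15.2% of abundant genes were 1.5-fold apart in either direction. By the count of large differences, the members as a whole were near the background.

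The actin bundlers were at nearly the same level in both libraries. Vil1, villin, which bundles, caps and severs actin, was at 1566 FPKM in the miR-215-/- library and 1600.1 FPKM in the wild-type library, 0.978-fold (counting interval 0.966 to 0.991). Pls1, plastin 1 or fimbrin, was at 536 FPKM in the miR-215-/- library and 592 FPKM in the wild-type library. Espn, espin, was at 207 FPKM in the miR-215-/- library and 214 FPKM in the wild-type library, and its counting interval of 0.917 to 1.02 included no difference. Together these 3 proteins bundle the core of the microvillus, and their log2 ratios lay between -0.14 and -0.03. The 2 tip proteins were a little higher. Eps8, which caps and bundles actin at the tip, was at 101 FPKM in the miR-215-/- library and 85.8 FPKM in the wild-type library, 1.18-fold (1.13 to 1.24). Baiap2l1, also called IRTKS, which binds EPS8 and curved membrane, was at 62.4 FPKM in the miR-215-/- library and 57.0 FPKM in the wild-type library, 1.09-fold (1.02 to 1.17). The median log2 ratio of these 5 genes was -0.03, and with equal library sums it was 0.10.

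The myosin genes went both ways within narrow limits. Myo1a, the main motor that tethers the core bundle to the microvillus membrane, was at 714 FPKM in the miR-215-/- library and 742 FPKM in the wild-type library. Myo1d, a second class I myosin of the brush border, was at 92.1 FPKM in the miR-215-/- library and 80.4 FPKM in the wild-type library, 1.14-fold (1.1 to 1.2). Myo7b, the motor of the tip-link complex, was at 144 FPKM in the miR-215-/- library and 164 FPKM in the wild-type library. Myo5b, which carries recycling endosomes to the apical membrane and whose loss causes microvillus inclusion disease in humans, was at 79.3 FPKM in the miR-215-/- library and 89.9 FPKM in the wild-type library. Myo7b and Myo5b had folds of 0.882 and 0.881, and Myo1d was the 1 motor that was higher. The median of the 4 genes was -0.12, and with equal library sums it was 0.02.

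Among the linkers between membrane and actin, Pdzk1 stood away from its partners. Ezr, ezrin, which joins membrane proteins to actin, was at 678 FPKM in the miR-215-/- library and 598 FPKM in the wild-type library, 1.13-fold (1.11 to 1.16). Slc9a3r1, NHERF1, the PDZ scaffold that binds ezrin, was at 992 FPKM in the miR-215-/- library and 1076 FPKM in the wild-type library, 0.922-fold (0.903 to 0.941). Pdzk1, a PDZ scaffold that holds transporters in the apical membrane, was at 260.0 FPKM in the miR-215-/- library and 403 FPKM in the wild-type library, 0.645-fold (0.624 to 0.666). Its log2 ratio of -0.63 was the lowest among the 16 scaffold genes, of which the next lowest was -0.27.

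The 4 listed genes of the intermicrovillar adhesion complex were all lower by a similar amount, and stayed below 0 under every scaling tried. Cdhr2, protocadherin 24, was at 816 FPKM in the miR-215-/- library and 939 FPKM in the wild-type library, 0.869-fold (0.856 to 0.882). Cdhr5, the mucin-like protocadherin that pairs with it across microvilli, was at 876 FPKM in the miR-215-/- library and 1032 FPKM in the wild-type library, 0.848-fold (0.832 to 0.865). Ush1c, harmonin, the scaffold under the protocadherins, was at 160.4 FPKM in the miR-215-/- library and 182 FPKM in the wild-type library. Anks4b, which links harmonin to myosin VIIb, was at 107 FPKM in the miR-215-/- library and 129 FPKM in the wild-type library. The log2 ratios of the 4 genes ran from -0.27 to -0.18 with a median of -0.22, close to the -0.18 of all genes of at least 50 FPKM.

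All 4 keratins were higher, in contrast to most abundant genes, of which 24.8% had a log2 ratio above 0. Krt8, the type II keratin of simple epithelia, was at 2893 FPKM in the miR-215-/- library and 2456 FPKM in the wild-type library, 1.18-fold (1.16 to 1.19). Its type I partners were lower in level, and Krt18 was at 146 FPKM in the miR-215-/- library and 141 FPKM in the wild-type library with an interval of 0.973 to 1.11 that included no difference. Krt19 was at 845 FPKM in the miR-215-/- library and 755 FPKM in the wild-type library, 1.12-fold (1.09 to 1.15). Krt20, the keratin of differentiated villus cells, was at 2287 FPKM in the miR-215-/- library and 1721 FPKM in the wild-type library, 1.33-fold (1.31 to 1.35), the largest fold above 1 among the members. The summed keratin FPKM was 6171 in the miR-215-/- library and 5074 in the wild-type library, 1.22-fold. The median log2 ratio was 0.20 and stayed above 0 under every setting tried, from 0.20 to 0.33. Reads of Krt8 and Krt18 can be shared with their processed copies, and the sources used here do not state how such fragments were assigned.

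The disaccharidases did not move as a group. Sis, sucrase-isomaltase, was at 761 FPKM in the miR-215-/- library and 866 FPKM in the wild-type library, 0.879-fold (0.868 to 0.891). Lct, lactase, was at 692 FPKM in the miR-215-/- library and 762 FPKM in the wild-type library, 0.909-fold (0.896 to 0.921). Mgam, maltase-glucoamylase, which shares starch digestion with sucrase-isomaltase, was at 533 FPKM in the miR-215-/- library and 457 FPKM in the wild-type library, 1.17-fold (1.15 to 1.19). The Sis to Mgam ratio of FPKM was 1.43 in the miR-215-/- library and 1.89 in the wild-type library, while the Sis to Lct ratio was 1.1 in the miR-215-/- library and 1.14 in the wild-type library. Treh, trehalase, was the lowest of the 4, at 328 FPKM in the miR-215-/- library and 483 FPKM in the wild-type library, 0.68-fold (0.658 to 0.703). The median log2 ratio of the 4 genes was -0.16, close to that of abundant genes.

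Of the 11 peptidases 10 were lower and Enpep was higher, with a median log2 ratio of -0.41. The 2 at least 1.5-fold lower on the log2 scale were Mme and Mep1a. Mme, neprilysin, a metallopeptidase of small peptides, was at 231 FPKM in the miR-215-/- library and 387 FPKM in the wild-type library, 0.599-fold (0.582 to 0.615). Mep1a, the alpha subunit of the metalloprotease meprin, was at 244 FPKM in the miR-215-/- library and 380.2 FPKM in the wild-type library, 0.643-fold (0.623 to 0.664). Its partner subunit Mep1b was at 1154 FPKM in the miR-215-/- library and 1288 FPKM in the wild-type library, 0.896-fold (0.881 to 0.912). The subunits thus differed in their folds, and the Mep1b to Mep1a ratio of FPKM was 4.72 in the miR-215-/- library and 3.39 in the wild-type library.

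The next lowest peptidases were 1.21-fold to 1.53-fold lower. Tmprss15, enteropeptidase, which activates trypsinogen in the duodenum, was at 11.6 FPKM in the miR-215-/- library and 17.8 FPKM in the wild-type library, 0.652-fold (0.575 to 0.74), past 1.5-fold in FPKM but not after 1 was added to each value. Ggt1, gamma-glutamyltransferase, which starts the breakdown of glutathione, was at 366 FPKM in the miR-215-/- library and 497 FPKM in the wild-type library. Xpnpep2, a membrane aminopeptidase P, which removes residues before proline, was at 132 FPKM in the miR-215-/- library and 179 FPKM in the wild-type library. These 2 genes had almost the same fold, 0.736 for Ggt1 and 0.737 for Xpnpep2. Ace, angiotensin-converting enzyme, a dipeptidyl carboxypeptidase, was at 682 FPKM in the miR-215-/- library and 908 FPKM in the wild-type library, 0.751-fold (0.738 to 0.764). Dpp4, dipeptidyl peptidase 4, which cuts after proline and inactivates incretins, was at 233 FPKM in the miR-215-/- library and 282 FPKM in the wild-type library, 0.827-fold (0.807 to 0.848).

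The remaining peptidases were nearer to 1. Anpep, the broad aminopeptidase of the brush border, was at 3293 FPKM in the miR-215-/- library and 3395 FPKM in the wild-type library, 0.97-fold (0.961 to 0.978). Naaladl1, a dipeptidase-like member of the glutamate carboxypeptidase II family, was at 1111 FPKM in the miR-215-/- library and 1224 FPKM in the wild-type library, 0.907-fold (0.892 to 0.923). Enpep, aminopeptidase A, which removes acidic residues, was at 506 FPKM in the miR-215-/- library and 459 FPKM in the wild-type library, 1.1-fold (1.08 to 1.13). Among the peptidases above 1000 FPKM, Anpep, Mep1b and Naaladl1, the log2 ratios ran from -0.16 to -0.04.

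The hydrolases of phosphate esters, nucleosides and sphingolipids had the lowest median, -0.51, with 5 of 6 kept genes lower. Alpi, the abundant intestinal alkaline phosphatase, was at 616 FPKM in the miR-215-/- library and 878 FPKM in the wild-type library, 0.702-fold (0.686 to 0.718). Akp3, a second alkaline phosphatase of the mouse intestine best known from the duodenum, was at 17.9 FPKM in the miR-215-/- library and 67.5 FPKM in the wild-type library, 0.266-fold (0.231 to 0.303) on an estimated 277 and 994 fragments in the miR-215-/- and the wild-type library. Its log2 ratio of -1.86 was the lowest of all members and at the 0.9 percentile of the abundant genes' log2 ratios. Alpi (chromosome 1, 87098002 to 87101606 of mm10) and Akp3 (chromosome 1, 87124973 to 87127912) are neighbouring genes, and their coding sequences are 81.8% identical over 1650 aligned bases, so fragments could be assigned to either copy where they match. The Alpi to Akp3 ratio of FPKM was 34.4 in the miR-215-/- library and 13 in the wild-type library, and the summed FPKM of the pair was 634 in the miR-215-/- library and 946 in the wild-type library. Alpl, the alkaline phosphatase of bone, liver and kidney, was at 0.0856 FPKM in the miR-215-/- library and 0.178 FPKM in the wild-type library, about 2 and 4 fragments, and its counting interval of 0.043 to 3.32 included no difference.

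Enpp3, a nucleotide pyrophosphatase, was at 281 FPKM in the miR-215-/- library and 408 FPKM in the wild-type library, 0.689-fold (0.672 to 0.706). The next 2 genes act in sequence on dietary sphingomyelin. Enpp7, alkaline sphingomyelinase, which releases ceramide, was at 648 FPKM in the miR-215-/- library and 899 FPKM in the wild-type library, 0.721-fold (0.702 to 0.74). Asah2, neutral ceramidase, which splits the ceramide, was at 295 FPKM in the miR-215-/- library and 420.4 FPKM in the wild-type library, 0.702-fold (0.686 to 0.718). Alpi, Enpp3, Enpp7 and Asah2 thus lay within a narrow range of folds, from 0.689 to 0.721, although they are located on different chromosomes and act on different substrates. Ada, adenosine deaminase, an enzyme of purine breakdown that is most abundant at the villus tip, went the other way, at 1076 FPKM in the miR-215-/- library and 854 FPKM in the wild-type library, 1.26-fold (1.23 to 1.29).

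**Figure D2:**
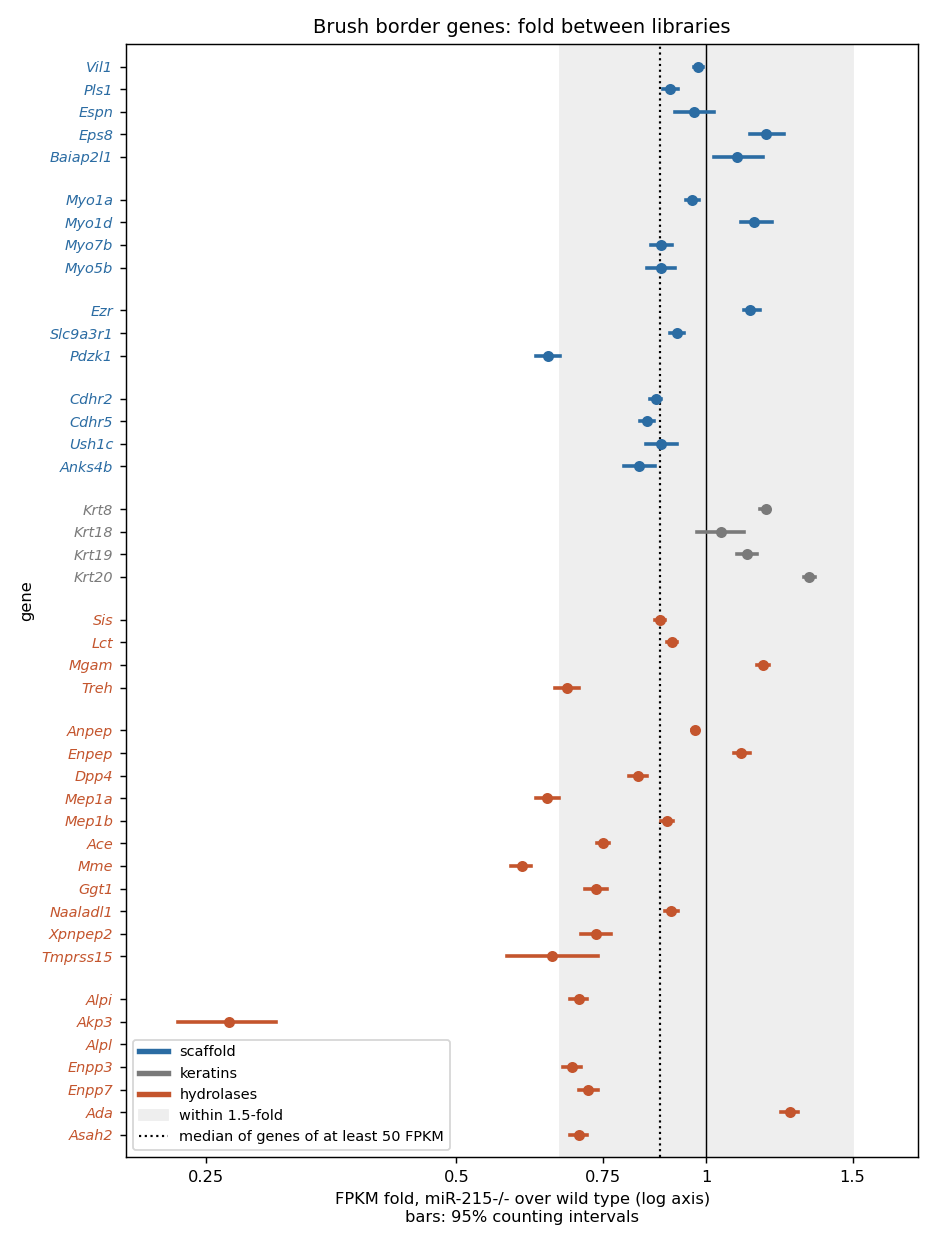
FPKM fold of the miR-215-/- library over the wild-type library on a log axis for the 41 kept genes, with 95% counting intervals as bars, grey for folds within 1.5 and a dotted line at the median of all genes of at least 50 FPKM; Alpl, under 1 FPKM, is not plotted. Scaffold genes lie between 0.83 and 1.18 except Pdzk1 at 0.645, keratins lie to the right of 1, and most hydrolases lie between 0.599 and 0.909, with Akp3 at 0.266.

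Set side by side, the member hydrolases lay lower than the member scaffold genes. The median log2 ratio was -0.44 over 21 kept hydrolases and -0.13 over 16 scaffold genes, a difference of -0.31 that stayed between -0.31 and -0.29 under every setting tried. Most settings could hardly move it. Rescaling a library shifts both medians alike by construction, and pseudocounts and minima matter little for genes this abundant. With the length trend removed the difference was -0.30. Among the hydrolases 18 of 21 were below 0, a share of 85.7%. Of the scaffold genes 12 of 16 were below 0, a share close to the 75.2% of all genes of at least 50 FPKM. Below the -0.18 median of those abundant genes lay 14 of 21 hydrolases and 4 of 16 scaffold genes. This count depends on genes close to the cut. The scaffold genes Myo7b, Myo5b and Ush1c, also at -0.18, lay at percentiles of 50.7 to 50.9 and were not counted. The hydrolase Sis, at the 49.6 percentile, was counted. Only 3 of 21 hydrolases were lower than the lowest scaffold gene, Pdzk1. Leaving Pdzk1 aside, a choice made after seeing the data, 13 of 21 hydrolases were lower than every scaffold gene. These counts rest on near ties, of Mep1a with Pdzk1 at -0.63 and of Dpp4 with Anks4b at -0.27. Folds of at least 1.5 were rare in both, 3 of 21 hydrolases (14.3%) and 1 of 16 scaffold genes (6.25%), near the 11.8% of abundant genes. The scaffold genes had a median transcript length of 3343 nt and the hydrolases one of 3422 nt. The summed FPKM of the hydrolases was 13214 in the miR-215-/- library and 15113 in the wild-type library, 0.874-fold, and that of the scaffold was 7389.6 in the miR-215-/- library and 7983 in the wild-type library, 0.926-fold. With equal library sums the scaffold median was 0.00 and the hydrolase median -0.30.

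**Figure D3:**
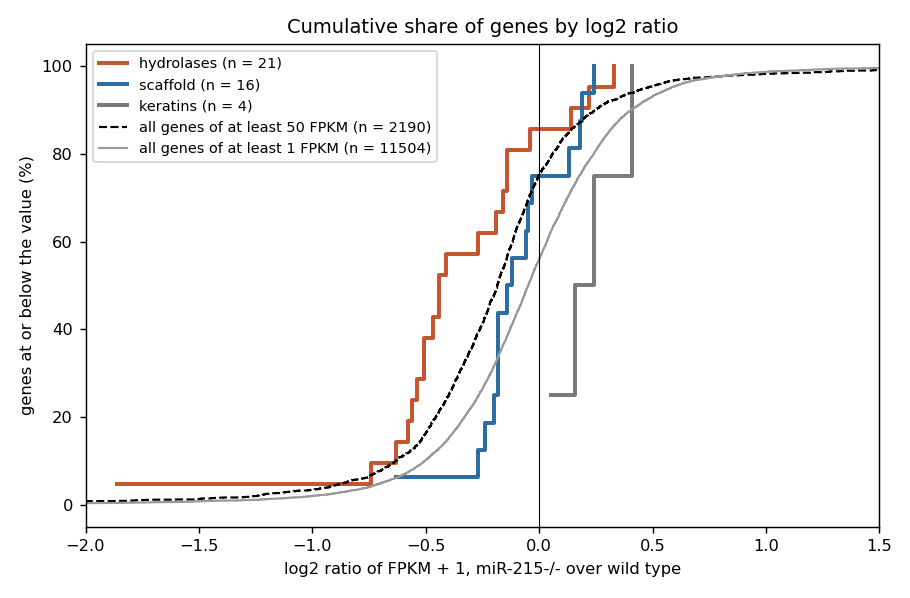
Cumulative share of genes, in percent, by log2 ratio of FPKM + 1 in the miR-215-/- over the wild-type library, for 21 hydrolases, 16 scaffold genes, 4 keratins and 2 sets of all genes. Over most of its length the hydrolase line runs to the left of the dashed line of abundant genes, with a median of -0.44 against -0.18, and the scaffold line crosses 0 near the dashed line.

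Other brush border genes, taken from lists by function, gave a mixed picture. A list of 10 further apical genes, hydrolases except for the adhesion molecule Ceacam1, had 9 kept, 4 below and 5 above 0, with a median of 0.07. Without Ceacam1, a choice made after seeing the data, the 8 kept hydrolases were 4 below and 4 above 0 with a median of -0.09 (0.04 with equal library sums), above the -0.44 of the member hydrolases (-0.30 with equal library sums). With a minimum of 50 FPKM the median of the list as written was -0.09 as well. At that minimum the list without Ceacam1 had a median of -0.25, with 3 of 5 genes below 0, and the member hydrolases one of -0.43. Dpep1, a dipeptidase, was at 314 FPKM in the miR-215-/- library and 484 FPKM in the wild-type library, 0.648-fold (0.628 to 0.669), the 1 gene of that list at least 1.5-fold lower. Ggt6, a relative of Ggt1, was at 17.4 FPKM in the miR-215-/- library and 25.2 FPKM in the wild-type library, and Plb1, a phospholipase, was at 210.2 FPKM in the miR-215-/- library and 259 FPKM in the wild-type library. Ceacam1 was higher, at 344 FPKM in the miR-215-/- library and 263 FPKM in the wild-type library. Folh1 was listed at 0 in both libraries.

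Of 16 listed further genes of the microvillus and terminal web, 9 were below and 7 above 0, with a median of -0.05 that became 0.09 with equal library sums. Among the 8 that reached 50 FPKM, 7 were below 0 and the median was -0.28. At that minimum the further hydrolases without Ceacam1 had a median of -0.25. Over all kept genes of that list it was -0.09, or 0.07 with Ceacam1. Between these further lists the lower position of member hydrolases against member scaffold genes was therefore not repeated at its size. Tmigd1, an adhesion protein of the brush border, was at 113 FPKM in the miR-215-/- library and 253 FPKM in the wild-type library, 0.445-fold (0.417 to 0.474). Calml4, the calmodulin-like light chain of myosin VIIb in the tip-link complex, was at 414 FPKM in the miR-215-/- library and 714 FPKM in the wild-type library, 0.58-fold (0.554 to 0.607). These 2 were the genes of the microvillus and terminal web list at least 1.5-fold lower. Twf2, twinfilin 2, was at 6.91 FPKM in the miR-215-/- library and 9.69 FPKM in the wild-type library. The 1 gene at least 1.5-fold higher, Slc9a3r2, NHERF2, was low, at 1.54 FPKM in the miR-215-/- library and 0.624 FPKM in the wild-type library. Actb, beta-actin, the most abundant, was at 1969.6 FPKM in the miR-215-/- library and 2037 FPKM in the wild-type library. Of 6 apical trafficking partners none was 1.5-fold apart, 5 were below 0 and 1 above, and their median was -0.11, or 0.02 with equal library sums. The lowest was Stx3, the apical syntaxin, at 43.7 FPKM in the miR-215-/- library and 57.9 FPKM in the wild-type library. The 1 above 0 was Slc9a3, an apical ion exchanger, at 98.4 FPKM in the miR-215-/- library and 82.6 FPKM in the wild-type library.

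Transcription factors known to control enterocyte genes were divided, 7 below and 7 above 0, with a median of -0.01 that became 0.12 with equal library sums. Cdx2, the homeobox factor that sets intestinal identity and binds the promoters of sucrase-isomaltase and lactase, was at 64.8 FPKM in the miR-215-/- library and 124 FPKM in the wild-type library, 0.522-fold (0.488 to 0.558). Gata4, a factor of the proximal intestine, was at 34.6 FPKM in the miR-215-/- library and 51.0 FPKM in the wild-type library, 0.678-fold (0.627 to 0.734). Prdm1, a transcriptional repressor that governs the suckling to adult switch, was low in level and higher, at 6.01 FPKM in the miR-215-/- library and 3.51 FPKM in the wild-type library, 1.71-fold (1.37 to 2.15). Foxa2 was at 2.42 FPKM in the miR-215-/- library and 1.6 FPKM in the wild-type library, with an interval of 0.924 to 2.44 that included no difference. Hnf4a, the nuclear receptor that drives many brush border genes, was at 209.8 FPKM in the miR-215-/- library and 260.0 FPKM in the wild-type library, 0.807-fold (0.784 to 0.831), and was the most abundant of the list in the wild-type library. Hnf4g, of the same family, was the most abundant in the miR-215-/- library, at 211 FPKM there and 218 FPKM in the wild-type library. Its counting interval of 0.93 to 1.01 included no difference.

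Promoters of the members were read for letters of such factors, from 250 bases before to 50 bases after the start, in RefSeq sequence of GRCm38.p6. A promoter was found for 35 member genes, 45 promoters in all. The letters CAAAGTCCA, a form of the HNF4 site, on either strand, occurred in 3 of 45 member promoters (6.67%), those of Alpi, Pdzk1 and Treh, against 0.475% of all 32851 promoters. This was 1 of 8 motifs searched, and it is shown because its share was the highest as a ratio to that of all promoters, though it rests on 3 promoters; in percentage points the TATA and CDX letters given below stood farther above. Those 3 genes had log2 ratios of -0.51, -0.63 and -0.56. The motifs were chosen after the members' values were seen, and the promoters compared were not limited to genes of these cells. The share therefore says nothing about the difference between libraries, and a link to it was not tested. The promoters are shown since these genes are among the lowest members, with the HNF4 letters in capitals, and Akp3, the lowest member and the neighbour of Alpi, is shown as a promoter in which they are not found. Alpi is at chr1:87101557-87101856 on the minus strand, Treh at chr9:44672983-44673282 on the plus strand, Pdzk1 (1 of its 2 promoters) at chr3:96829815-96830114 on the plus strand and Akp3 at chr1:87124704-87125003 on the plus strand.
Alpi: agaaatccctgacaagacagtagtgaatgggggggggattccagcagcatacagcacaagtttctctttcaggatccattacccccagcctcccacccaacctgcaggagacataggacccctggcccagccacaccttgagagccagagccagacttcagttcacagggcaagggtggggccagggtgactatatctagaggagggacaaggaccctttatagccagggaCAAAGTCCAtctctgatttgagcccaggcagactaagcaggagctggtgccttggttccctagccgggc
Treh: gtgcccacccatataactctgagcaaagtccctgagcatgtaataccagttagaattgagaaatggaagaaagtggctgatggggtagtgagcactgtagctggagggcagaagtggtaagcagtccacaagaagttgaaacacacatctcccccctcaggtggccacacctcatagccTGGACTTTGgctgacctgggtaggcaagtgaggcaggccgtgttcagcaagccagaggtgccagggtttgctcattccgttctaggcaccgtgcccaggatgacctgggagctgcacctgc
Pdzk1: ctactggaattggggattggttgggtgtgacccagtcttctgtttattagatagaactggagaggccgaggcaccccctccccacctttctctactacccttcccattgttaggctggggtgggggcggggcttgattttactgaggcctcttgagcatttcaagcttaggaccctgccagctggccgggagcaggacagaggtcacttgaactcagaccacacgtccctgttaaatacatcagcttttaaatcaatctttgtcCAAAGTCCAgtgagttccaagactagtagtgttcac
Akp3: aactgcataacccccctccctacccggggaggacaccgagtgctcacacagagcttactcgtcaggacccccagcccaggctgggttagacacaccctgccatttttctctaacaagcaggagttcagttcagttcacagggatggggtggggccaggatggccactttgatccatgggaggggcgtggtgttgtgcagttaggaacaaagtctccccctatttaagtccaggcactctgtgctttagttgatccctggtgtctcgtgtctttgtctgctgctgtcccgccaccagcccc
The last base of the match is at -11 from the start in Alpi and -63 in Treh, where it is read as the reverse complement, and at 23 within the transcript in Pdzk1. Another form, CAAAGGTCA, was in 0 of 45 member promoters and in 0.478% of all. The CDX letters TTTATNG were in 8 of 45 member promoters (17.8%), against 10.9% of all; 4 of the 8 overlap the letters TATAAA of a TATA box, which were in 24.4% of member promoters and 13.6% of all. The CDX genes were Alpi, Alpl, Dpp4, Espn, Krt20, Mep1a, Sis and Tmprss15, and 6 of them were kept and below 0. Of all kept members 73.2% were below 0, and of the 11 member genes with the TATA letters 6 were kept and below 0. The narrower TTTATGG, contained in the first, was in 3 member promoters (6.67%), against 2.75% of all. The GATA letters AGATAA were in 15.6% of member promoters and 11.2% of all, and 4 of the 7 member genes with them were below 0. Of 2 forms of the HNF1 site, 1 was in the promoter of Cdhr2, 2.22% of member promoters against 0.399% of all, and the other was in 0 of 45. A match is a run of letters and does not show binding.

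miR-215-5p lowers its targets by pairing of its seed, bases 2 to 8, with the 3' end of messages, and miR-192-5p, from another locus, has the same seed, shown here in capitals from RefSeq GRCm38.p6. The miR-215-5p sequence lies at chr1:185313610-185313630 and that of miR-192-5p at chr19:6264857-6264877, both on the plus strand.
mmu-miR-215-5p: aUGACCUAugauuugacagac
mmu-miR-192-5p: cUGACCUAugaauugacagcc
The matching letters TAGGTCA were found in the longest annotated 3' UTR of 2 of 41 members with one, 4.88%, against 6.97% of all genes kept and 3.7% of genes of at least 50 FPKM. These are Anks4b, at chr7:120184164-120184191 on the plus strand, and Asah2, at chr19:31983167-31983194 on the minus strand, with the site in capitals.
Anks4b: attagaagatgtTAGGTCAtcaaagcat
Asah2: ggataaagcataTAGGTCAatcgatgct
Both genes were lower in the miR-215-/- library, with log2 ratios of -0.27 for Anks4b and -0.51 for Asah2. The 3' UTRs of the members were short, with a median of 672 nt against 1276 nt for all genes kept. None of the 4 keratins held the letters, which says little for so few genes beside a share of 6.97% among all genes kept. Over all genes kept with a 3' UTR, the median log2 ratio was 0.0 with the letters and -0.05 without them. Whether the site had a part in the members' differences was not tested.

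Markers of other regions and cells were read beside these differences, and their part in them was not tested. Of 6 genes of the proximal small intestine, Cybrd1 was under 1 FPKM, at 0.356 FPKM in the miR-215-/- library and 0.308 FPKM in the wild-type library. The other 5 were all below 0, with a median of -0.33 (with equal library sums -0.19, 4 of 5 below 0) and a sum of 6291 FPKM in the miR-215-/- library and 7911 FPKM in the wild-type library. The most abundant of them made up most of that sum, at 6247 FPKM in the miR-215-/- library and 7846 FPKM in the wild-type library, 0.796-fold. Its log2 ratio was also the median. Pdx1 (0.463 to 1.38) and the gene with the smallest log2 ratio, -0.03 (0.876 to 1.09), had counting intervals that included no difference. The lowest was Slc40a1, ferroportin, at 3.58 FPKM in the miR-215-/- library and 6.56 FPKM in the wild-type library; Gata4 is in this list too, and none was at 0. The 5 distal genes were 3 above and 2 below 0, with a median of 0.06 and a sum of 3678 FPKM in the miR-215-/- library and 4467 FPKM in the wild-type library. Fabp6, the ileal bile acid-binding protein, made up most of that sum and was lower, at 3554 FPKM in the miR-215-/- library and 4354 FPKM in the wild-type library. Its fold of 0.816 was close to the 0.796 of the most abundant proximal gene. Slc10a2, the ileal bile acid transporter, was at 26.1 FPKM in the miR-215-/- library and 27.9 FPKM in the wild-type library. Fgf15, the ileal bile acid hormone, was at 20.9 FPKM in the miR-215-/- library and 13.7 FPKM in the wild-type library. Akp3 and Tmprss15, genes best known from the duodenum, and Alpi were lower in the same library as these proximal genes. So were most other genes of this level, with 30 of the 41 kept members and 75.2% of abundant genes below 0. A link to region was not tested.

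Of 7 villus tip genes 5 were above 0, with a median of 0.09 and a sum of 13354 FPKM in the miR-215-/- library and 14285 FPKM in the wild-type library. The 2 highest log2 ratios were those of Slc28a2 and Ifrd1. Slc28a2, a nucleoside transporter, was at 155 FPKM in the miR-215-/- library and 109.6 FPKM in the wild-type library, and Ifrd1 was at 73.7 FPKM in the miR-215-/- library and 46.3 FPKM in the wild-type library. Apoa4, an apolipoprotein that made up most of the sum, was lower, at 12581 FPKM in the miR-215-/- library and 13536 FPKM in the wild-type library, and so was Creb3l3, at 289 FPKM in the miR-215-/- library and 353 FPKM in the wild-type library. The other 3 had log2 ratios of 0.08 to 0.16. Of 6 listed villus base genes 4 were above 0 with a median of 0.11, with Reg1 at 411 FPKM in the miR-215-/- library and 2110.2 FPKM in the wild-type library and Dmbt1 at 233 FPKM in the miR-215-/- library and 92.7 FPKM in the wild-type library. All 10 proliferation genes were above 0, against 44.0% of all genes kept, with a median of 0.55. They summed to 176.7 FPKM in the miR-215-/- library and 142.5 FPKM in the wild-type library. Pcna, the largest part of that sum, was at 85.3 FPKM in the miR-215-/- library and 80.5 FPKM in the wild-type library. Its counting interval of 0.975 to 1.15 included no difference, as did those of some others of the list. All 10 kept smooth muscle and fibroblast markers of 11 listed were at least 1.5-fold higher, against 4.83% of all genes kept. Their median was 0.895 FPKM in the wild-type library, and those under 1 FPKM there were kept only through the miR-215-/- library. For these the filter favours a higher value, so the count is not evidence by itself. The 11 listed summed to 55.3 FPKM in the miR-215-/- library and 16.0 FPKM in the wild-type library. Des, desmin of muscle, was at 5.85 FPKM in the miR-215-/- library and 0.581 FPKM in the wild-type library. The macrophage and dendritic cell markers summed to 103.1 FPKM in the miR-215-/- library and 79.55 FPKM in the wild-type library, 8 of 9 above 0, and the T cell markers to 393.7 FPKM in the miR-215-/- library and 376.4 FPKM in the wild-type library, 4 of 7 above 0. Goblet cell markers were 3 above and 3 below 0, with a sum of 13998 FPKM in the miR-215-/- library and 17048 FPKM in the wild-type library, and Paneth cell markers other than defensins were 3 above and 2 below 0, with a sum of 1291 FPKM in the miR-215-/- library and 1198 FPKM in the wild-type library. No listed marker of these regions and cells was at 0 in either library. Enterocyte genes outside the members were 7 of 9 below 0 with a median of -0.14, and general epithelial genes 4 of 5 below 0 with a median of -0.14. With equal library sums both medians were at 0.00. The scaffold median of -0.13 was close to these, and the hydrolase median of -0.44 was below both.

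**Figure D4:**
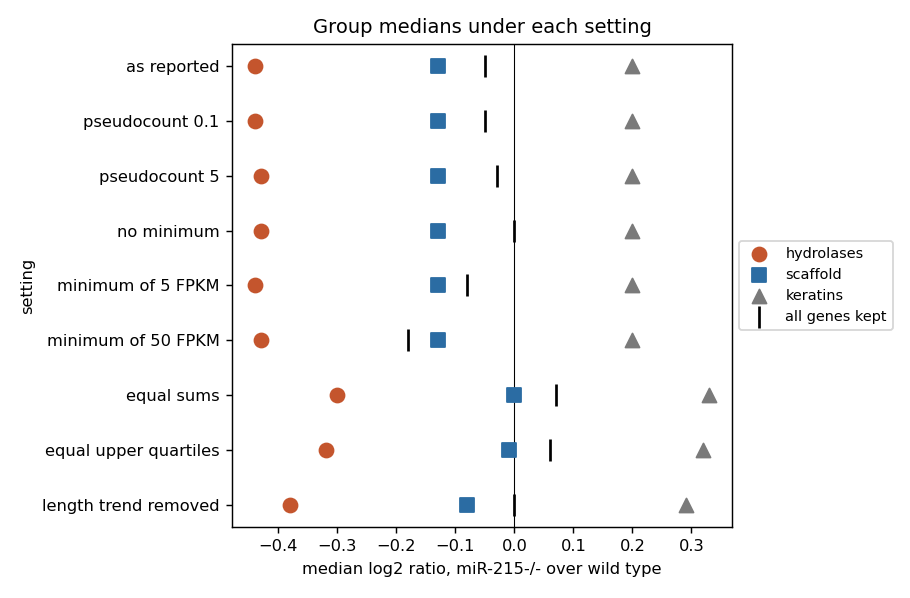
Median log2 ratio of the miR-215-/- over the wild-type library, on the x axis, for hydrolases, scaffold genes, keratins and all genes kept under each setting on the y axis. The hydrolase medians lie between -0.44 and -0.30 and the keratin medians between 0.20 and 0.33, while the scaffold medians lie between -0.13 and 0.00.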

How the data were processed

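mRNA of small intestinal epithelial cells was sequenced in 1 miR-215-/- and 1 wild-type library. Per the labels' protocols, a RNeasy Mini kit gave the RNA and a TruSeq stranded mRNA kit the libraries. The deposited values are FPKM made by the authors, 1 per gene symbol and library; the unit was inferred from the table layout, the values and the tool names. Per the submitters' processing notes, the tools were Cuffnorm 2.2.1, TopHat2 2.0.13, SAMtools 0.1.19 and Bowtie2 2.2.3, with the build mm10. The sources used here do not give settings, annotation, use of strand or the scaling applied across libraries.

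Without counts in the files, count models were not used. Genes that reached 1 FPKM in either library were kept (11504), and log2 ratios are of FPKM + 1, a scale that understates differences of low genes; folds with intervals are ratios of FPKM. A difference of 2-fold or 1.5-fold on the log2 scale is a rule of size, not of significance. Fragment numbers came from the steps between low values of 413 genes in the miR-215-/- library and 404 genes in the wild-type library with 1 annotated transcript and under 0.3 FPKM, and from the median annotated transcript length (GENCODE M21, GRCm38, the assembly of mm10; 99.0% of kept genes matched). Intervals are exact 95% Clopper-Pearson intervals (SciPy 1.17.1) and cover counting error only. The calculation was tested on simulated data. Promoters and microRNAs are from RefSeq tables of GRCm38.p6; 8 motifs, spelled in the text or forms of those, were searched on both strands and chosen after the members' values were seen. The members and the 16 other gene lists were chosen with earlier results of these data known. All members are named; from each other list up to 4 genes of largest log2 ratio and the most abundant are candidates for naming, and 3 list genes without a row are not analysed here. One further list gene is not reported here by name. In total 8 alternatives of pseudocount, minimum, scaling and length correction were tried.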

Additional observations from a re-analysis of the deposited data

How the results depend on the processing

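Hydrolase and keratin medians kept their direction under all 8 alternatives, and Akp3 stayed the 1 member 2-fold apart under each. With equal library sums the scaffold median turned to 0.00, the keratin median was 0.33, and the hydrolase median was -0.30 (sugar -0.03, peptide -0.28, phosphate, nucleoside and sphingolipid -0.38). With equal upper quartiles the medians were -0.01 for scaffold, 0.32 for keratins and -0.32 for hydrolases (sugar -0.04, peptide -0.29, phosphate, nucleoside and sphingolipid -0.39). Under either scaling 2 members (Akp3 and Mme), in place of 4, were at least 1.5-fold apart, the median of all genes turned from -0.05 to 0.07 with equal sums and 0.06 with equal upper quartiles, and 5 members changed sign: Vil1, Espn, Myo1a, Slc9a3r1 and Anpep. A single factor applied to one library moves every ratio alike by construction, so the difference between hydrolases and scaffold stayed at -0.31. With the trend over transcript length removed the medians were -0.08 for scaffold, 0.29 for keratins, -0.38 for hydrolases, -0.21 for sugar hydrolases and -0.47 for phosphate, nucleoside and sphingolipid hydrolases, and Vil1 and Espn changed sign. A minimum of 50 FPKM, which leaves out Tmprss15, gave -0.34 for peptide hydrolases. Pseudocounts of 0.1 and 5 and minima of none or 5 FPKM changed no sign of a member; with 0.1 Tmprss15 too was past 1.5-fold, at -0.61. The list of other brush border hydrolases turned from 0.07 to -0.09 without Ceacam1, an alternative chosen after seeing the data. No paired analysis was possible because there is 1 library per genotype. For the same reason no replicate could be left out, and counting depth limits Alpl, at 2 and 4 fragments in the miR-215-/- and the wild-type library, Espn and Krt18, whose counting intervals include no difference, and Tmprss15, whose interval of 0.575 to 0.74 spans a 1.5-fold difference.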
